A study of Saccharomyces cerevisiae with 24 samples.

Results

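Gene expression between 48 h and 72 h of growth in 200 mM CaCl2 was compared in 2 strains of the budding yeast Saccharomyces cerevisiae, to ask which genes still moved after 48 h and which had reached a steady level. The comparison took 12 of the 24 libraries of the study, the 6 from 72 h against the 6 from 48 h, with strain and replicate number as factors. RNA carrying a polyA tail was sequenced from cultures of the haploid laboratory strain BY4741. The wild type (WT) carried MATa his3delta1 ura3delta0 leu2delta0 lys2delta0 and a hygromycin-resistance and GFP(Y66F) construct on chromosome VI (181901 to 182001), and the cnb1 strain carried all of these and cnb1delta::KanMx. Each strain had 3 libraries at 48 h and 3 at 72 h, and 3 at each of 0 h (before CaCl2) and 12 h, which are used here only for scale. All cultures grew in synthetic medium with ammonium chloride as nitrogen source and were diluted every 12 h to stay in logarithmic growth. At 48 h and 72 h there was no CaCl2-free culture to compare with, so CaCl2 and time in diluted culture cannot be told apart. The same holds for fewer cells of a kind against less RNA per cell. The p-values measure the spread left between libraries after strain, replicate number and time are fitted. The libraries are of what the design calls triplicate time courses.

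The product of CNB1 is the regulatory subunit of calcineurin, a phosphatase that calcium and calmodulin activate and that in yeast acts on the transcription factor Crz1. Yeast cells under a lasting stress pass through an early, large change in gene expression and then settle to new levels, and 2 nutrient pathways bear on what follows. The PHO pathway holds acid phosphatases and phosphate transporters under the control of the factor Pho4, which binds CACGTG and is kept inactive when phosphate is plentiful. The glucose-sensing pathway runs from the membrane sensors Snf3 and Rgt2 through Mth1 and Std1 to the repressor Rgt1, which controls the HXT hexose transporter genes.

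The 12 libraries held 20929368 to 22010364 counts each. CNB1 had 1913 to 3320 counts in the 6 WT libraries and 7 to 23 in the 6 cnb1 libraries, so every library matched its strain label. As defining markers of the cell type, the 7 genes specific to mating type a summed to 249 to 947 CPM (counts scaled to a fixed library total) at 48 h and 295 to 926 at 72 h. The 4 genes specific to mating type alpha summed to 24.2 to 27.8 and 23.2 to 30.9 CPM, nearly all of it from SAG1, and 10 meiotic genes to 58.7 to 69.9 and 63.8 to 74.7 CPM. A sum of 6 stationary-phase genes spread far more within each time, from 57.0 to 780 CPM at 48 h and from 89.6 to 717 CPM at 72 h. WT replicate 1 stood apart at both times: HSP26, a small heat shock protein in that sum, was at 714 CPM there at 48 h against 25.8 and 36.9 CPM in the other two WT libraries. Replicate 1 of the cnb1 strain also had the highest sum of its strain at both times. At 48 h it had HSP26 at 161 CPM, against 16.5 and 28 CPM in replicates 2 and 3. The difference in the sum rested mainly on HSP26. SNZ1, another of the 6 genes, was at 45.6, 141 and 34.1 CPM in cnb1 replicates 1 to 3 at 48 h. At 72 h it was at 53.9, 89.3 and 53.8 CPM. SNO1, also in the sum, was likewise highest in cnb1 replicate 2 at both times. In WT both genes were highest in replicate 1 at both times. Why replicate 1 differed was not tested. Values without the 48 h library of WT replicate 1 are given beside the overall count and beside each count of called list members that it changes. CPM values were normalised by the trimmed mean of M-values (TMM), and a pair means the 48 h and 72 h libraries of the same strain and replicate number.

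Few genes were called in this last interval. With edgeR's quasi-likelihood test at an adjusted p under 0.05, 46 of 6253 genes tested were called (0.736%), 5 higher (0.08%) and 41 lower (0.656%) at 72 h. The 46 had their sign in all 6 pairs except for 1 gene, and among all genes tested 4.96% were higher and 3.73% lower in 6 of 6 pairs. The call rests on the replicate number as a factor, because without it edgeR called 0 genes, with a smallest adjusted p of 0.387 and 295 genes at an unadjusted p under 0.05 against 770 with it. DESeq2 with the same factors called 108 genes, which held all 46. The count was 0 without the 4 libraries of replicate 3, 4 without those of replicate 2 and 13 without those of replicate 1. It was 226 (121 higher and 105 lower) without WT replicate 1 at 48 h alone. Without another single library it ranged from 2, without cnb1 replicate 2 at 72 h, to 92, without WT replicate 2 at 48 h, and was 68 without cnb1 replicate 1 at 48 h. All 46 genes kept their sign and an unadjusted p under 0.05 in each of these 15 refits. The refits reuse libraries by which the 46 were chosen, as do the signs in the 6 pairs, so neither is separate support for the calls.

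For most genes the interval of the change was narrow enough to speak of a steady level. A gene was counted as steady where the 95% interval of its fold change lay within 1.5-fold either way, and as undecided where it was neither steady nor called. By this measure 5248 genes (83.9%) were steady and not called, and 959 were undecided. The share rested on level: 95.7% of the 4446 genes with a mean of at least 20 CPM at 48 h or 72 h were steady, against 55.1% of the 1807 below it. The median change over all genes was 0.01 on the log2 scale and the median SE 0.08. For scale, the same test called 4298 genes (68.7%) for 12 h against 0 h and 857 (13.7%; 7.18% higher and 6.52% lower) for 48 h against 12 h, a count that was 0 without replicate 3. These intervals last 12, 36 and 24 h, and the last 2 share the 48 h libraries.

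**Figure D1:**
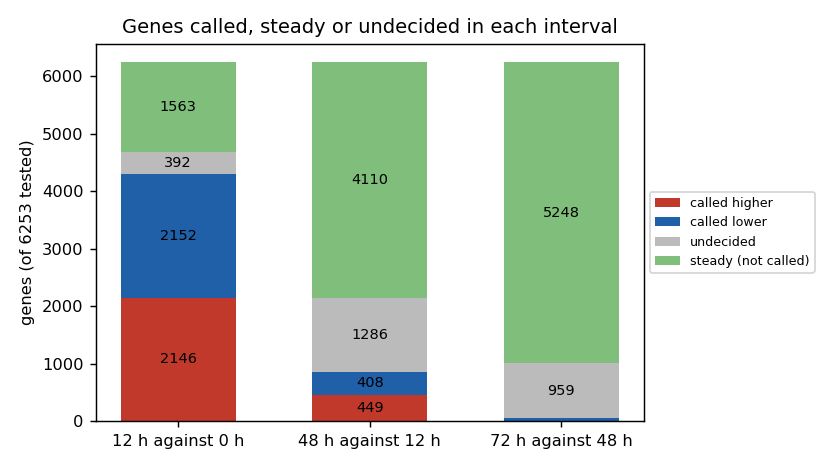
Number of the 6253 genes tested (vertical axis) that were called higher, called lower, undecided or steady and not called in each interval of the time course (horizontal axis), both strains together. Called genes number 4298 for 12 h against 0 h, 857 for 48 h against 12 h and 46 for 72 h against 48 h, and steady genes number 1563, 4110 and 5248.

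**Figure D2:**
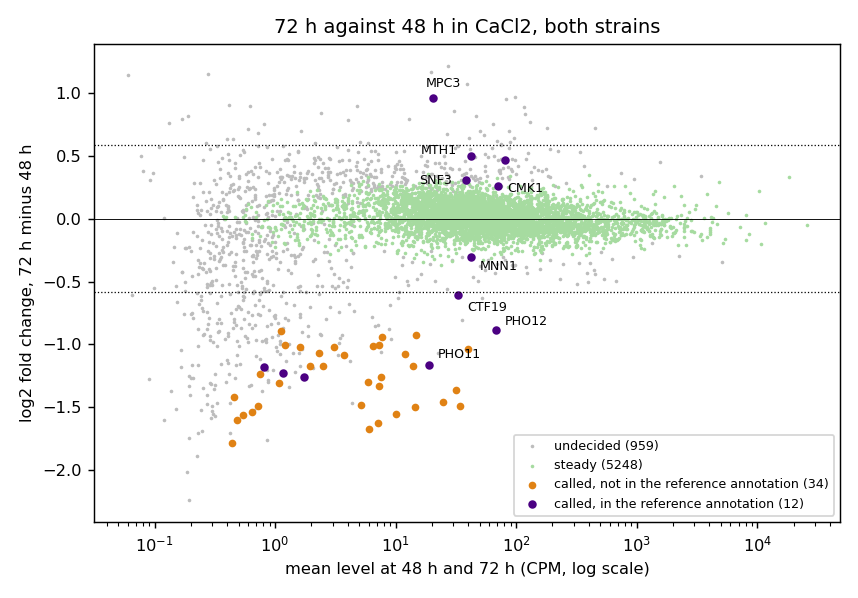
Log2 fold change from 48 h to 72 h of each gene tested (vertical axis) against its mean level at the 2 times in CPM (horizontal log axis), with dotted lines at 1.5-fold. The 34 called genes outside the reference annotation (orange) all lie below 0, and the 12 annotated called genes (purple) comprise 5 above 0 and 7 below it.

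Among the called genes that are annotated and of at least 20 CPM, acid phosphatase genes of the PHO pathway fell furthest. PHO11 (YAR071W, chromosome I, 225460 to 226863, genome build R64) and PHO12 (YHR215W, chromosome VIII, 552099 to 553502) encode secreted acid phosphatases that free phosphate outside the cell. The genes differ at 4 of 1404 bases (99.72% identical), so reads of either may have been counted for the other, and each value is uncertain on its own. Their upstream 300 bases are identical, as read from the R64 genome of RefSeq, and are shown once beside those of CTF19 and SPL2, because CACGTG (capitals) stands in each. CACGTG, its own reverse complement, was found in the upstream 300 bases of 214 of 6001 genes (3.57%). It stands 283 bases before the start codon of PHO11 and of PHO12, 293 before that of CTF19 and 147, 90 and 31 before that of SPL2. A match describes the sequence only.
PHO11, chrI:225160-225459, plus strand (PHO12 the same at chrVIII:551799-552098, plus strand): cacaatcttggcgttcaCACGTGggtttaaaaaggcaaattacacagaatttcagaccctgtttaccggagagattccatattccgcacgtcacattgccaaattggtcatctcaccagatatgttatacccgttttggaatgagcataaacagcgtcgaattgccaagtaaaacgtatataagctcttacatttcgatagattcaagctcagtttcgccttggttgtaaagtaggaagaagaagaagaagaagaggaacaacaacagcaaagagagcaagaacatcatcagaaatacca
CTF19, chrXVI:517351-517650, plus strand: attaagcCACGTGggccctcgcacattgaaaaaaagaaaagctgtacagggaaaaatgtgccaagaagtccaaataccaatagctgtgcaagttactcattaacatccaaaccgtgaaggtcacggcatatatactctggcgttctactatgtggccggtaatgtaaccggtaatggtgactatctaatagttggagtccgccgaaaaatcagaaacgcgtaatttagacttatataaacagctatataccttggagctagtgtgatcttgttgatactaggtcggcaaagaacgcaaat
SPL2, chrVIII:375101-375400, minus strand: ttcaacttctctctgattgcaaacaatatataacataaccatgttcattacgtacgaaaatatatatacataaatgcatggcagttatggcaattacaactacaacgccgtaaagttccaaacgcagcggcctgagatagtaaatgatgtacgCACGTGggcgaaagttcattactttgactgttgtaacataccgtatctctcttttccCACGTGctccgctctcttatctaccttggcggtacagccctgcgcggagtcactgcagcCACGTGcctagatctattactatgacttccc

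PHO11 was at 5.79, 20.8 and 14.7 CPM in WT replicates 1 to 3 at 48 h and at 3.36, 6.05 and 7.96 CPM at 72 h. In the cnb1 strain it was at 27.3, 38.3 and 47.5 CPM and then at 9.29, 17.8 and 27.6 CPM. Each library at 72 h was below its partner at 48 h, while the ranges of the 2 times overlapped in each strain, in WT through the low 48 h value of replicate 1. PHO11 fell by 1.17 ± 0.16 (log2 fold change ± SE, edgeR adjusted p = 0.0103, 3 libraries per strain and time). The change was −1.21 ± 0.24 in WT and −1.13 ± 0.22 in the cnb1 strain, and the difference between the strains was 0.07 ± 0.33. PHO12 was at 22.1, 57.0 and 57.0 CPM in WT at 48 h and at 16.0, 19.7 and 29.1 CPM at 72 h. In the cnb1 strain it was at 97.0, 124 and 160.3 CPM and then at 52.8, 73.4 and 101 CPM. As for PHO11, all 6 pairs were lower at 72 h and the ranges overlapped slightly in each strain. PHO12 fell by 0.89 ± 0.12 (edgeR adjusted p = 0.0103). With the counts of both genes summed, a step added after the data were seen, the fall was 0.95 ± 0.12 (edgeR adjusted p = 0.00942). Both genes had already fallen in the first interval, by 1.14 ± 0.13 and 0.93 ± 0.11 between 0 h and 12 h (edgeR adjusted p = 1.7e-05 and 1.9e-05). Their changes from 12 h to 48 h were −0.86 ± 0.23 and −0.78 ± 0.22.

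CTF19 (YPL018W, chromosome XVI, 517651 to 518760), which encodes a subunit of the COMA complex of the kinetochore, fell as well. It was at 22.4, 37.2 and 33.3 CPM in WT at 48 h and at 14.9, 19.9 and 22.5 CPM at 72 h, and in the cnb1 strain at 42.1, 45.7 and 56.1 CPM and then at 25.8, 38.4 and 36.9 CPM. The cnb1 libraries of the 2 times did not overlap, and in WT the highest 72 h value was just above the lowest 48 h value. CTF19 fell by 0.60 ± 0.08 (edgeR adjusted p = 0.0097). Unlike PHO11 and PHO12 it had been steady from 0 h to 12 h (−0.07 ± 0.07) and from 12 h to 48 h (−0.16 ± 0.11). CTF19 is the divergent neighbour of VTC3 (YPL019C, 514511 to 517018), a subunit of the vacuolar polyphosphate polymerase and a PHO pathway gene, and 632 bases lie between them. VTC3 was at 207, 487 and 427 CPM in WT at 48 h and at 152, 299 and 285 CPM at 72 h, and in the cnb1 strain at 452, 517 and 657 CPM and then at 287, 463 and 493 CPM. It was lower at 72 h in all 6 pairs, by a log2 value of −0.51 ± 0.11 that missed the threshold (edgeR adjusted p = 0.0587).

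Of 28 tested genes on a list of the phosphate regulon, 3 fell (PHO11, PHO12 and CTF19), none rose, 17 were steady and 8 undecided. Over all genes tested 0.656% fell and 83.9% were steady. The count of 3 was 7, all lower, without WT replicate 1 at 48 h, where 105 of all 6253 genes tested were called lower. It was 0 without the replicate factor or without the libraries of replicate 3. CTF19 is on that list as the neighbour of VTC3 and is no phosphatase or transporter. PHO11 and PHO12 may share reads, so the 3 are not 3 separate results. The list median was −0.21 against 0.01 over all genes, and it was negative in all 6 pairs, from −0.33 to −0.09. SPL2, a regulator of the low-affinity phosphate transporters, was at 8.67, 26.2 and 27.6 CPM in WT at 48 h and at 4.27, 9.81 and 18.6 CPM at 72 h, with a change of −0.81 ± 0.21 that did not pass the test (edgeR adjusted p = 0.146). The other phosphatase and polyphosphate genes moved less. PHO5, the main repressible acid phosphatase, was steady at −0.33 ± 0.09 and lower in 6 of 6 pairs. VTC4, the catalytic subunit of the polyphosphate polymerase, was steady at −0.24 ± 0.06. PHO8, a vacuolar alkaline phosphatase, and PHO3, a constitutive acid phosphatase, had changes of −0.38 ± 0.10 and −0.38 ± 0.14, both undecided. The high-affinity phosphate transporter gene PHO84 was undecided at −0.35 ± 0.13, from 5671 CPM on average at 48 h to 4515 CPM at 72 h. The regulators PHO4 (−0.14 ± 0.08) and PHO81 (−0.23 ± 0.08), which encodes an inhibitor of the Pho85 kinase, were steady. Within 300 bases, CACGTG stood once upstream of PHO5 and at 2 places upstream of VTC4, with no match for PHO8, PHO84 or VTC3. The match given for CTF19 lies between CTF19 and VTC3, so it is also upstream of VTC3, beyond the 300 bases searched.

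**Figure D3:**
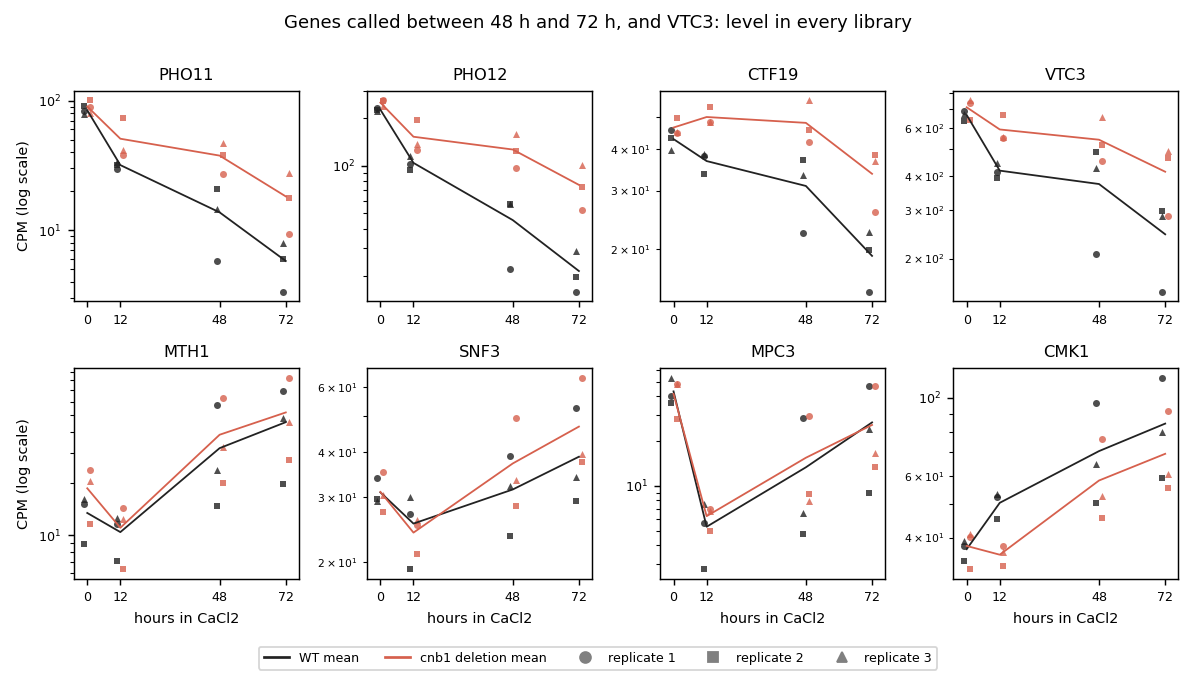
Level in every library (points, CPM on a log axis) of 7 genes called between 48 h and 72 h and of VTC3, against hours in CaCl2, with lines through the means of 3 libraries per strain. PHO11, PHO12 and CTF19 end below their 48 h levels in each of the 6 pairs, and MTH1, SNF3, MPC3 and CMK1 end above them.

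Of the 5 genes that rose, 2 encode parts of the glucose-sensing pathway. MTH1 (YDR277C, chromosome IV, 1014401 to 1015702), a co-repressor that acts with Rgt1 on the HXT genes, was at 57.6, 14.8 and 24.1 CPM in WT at 48 h and at 69.1, 19.9 and 47.9 CPM at 72 h. In the cnb1 strain it was at 62.8, 20.2 and 32.6 CPM and then at 82.8, 27.5 and 45.6 CPM. The replicates differed more from each other than the times did, with replicate 1 high and replicate 2 low at each time in each strain, and the times overlapped. MTH1 rose by 0.50 ± 0.09 (edgeR adjusted p = 0.0298), in 6 of 6 pairs. SNF3 (YDL194W, chromosome IV, 111580 to 114234), the sensor for low glucose, was at 38.8, 23.5 and 32.2 CPM in WT at 48 h and at 52.8, 29.3 and 34.2 CPM at 72 h. In the cnb1 strain it was at 49.4, 28.5 and 33.5 CPM and then at 63.7, 37.4 and 39.4 CPM. SNF3 rose by 0.31 ± 0.06 (edgeR adjusted p = 0.0424) in 6 of 6 pairs with overlap between the times, and its 95% interval, 0.18 to 0.44, stayed within 1.5-fold. Both had fallen between 0 h and 12 h, MTH1 by 0.59 ± 0.10 and SNF3 by 0.35 ± 0.07. Their changes from 12 h to 48 h were 1.60 ± 0.16 and 0.46 ± 0.10.

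The list of hexose transport and glucose-sensing genes had 22 tested members, of which these 2 rose, none fell, 11 were steady and 9 undecided. Over all genes tested 0.08% rose. The count of 2 was 3 without WT replicate 1 at 48 h, where 121 of all 6253 genes tested were called higher. It was 0 or 1 in the 14 other refits with libraries left out, 1 with total count scaling and 0 without the replicate factor. The list median was 0.30, and it was positive in all 6 pairs, from 0.10 to 0.31. The major transporter genes were steady: HXT1 at 0.19 ± 0.07, HXT2 at 0.30 ± 0.07 and HXT3 at 0.22 ± 0.12. HXT1 and HXT2 were nevertheless higher in 6 of 6 pairs. HXT4, a high-affinity transporter gene, ran from 7.95 to 96.0 CPM at 48 h and from 9.91 to 144 CPM at 72 h, a change of 0.70 ± 0.24 that did not pass the test (edgeR adjusted p = 0.300). HXT5, another list member, went down in WT replicate 1 (8959 to 3664 raw counts) and cnb1 replicate 2 (57 to 46) and up in the other pairs. It was called in 0 of 25 alternatives, with changes from 0.12 to 0.95. MIG2, a repressor of glucose-repressed genes, had a change of 0.70 ± 0.16 (edgeR adjusted p = 0.0830) and was higher in 6 of 6 pairs. MIG1, its better known relative, and RGT1, the repressor of the HXT genes, were steady at 0.10 ± 0.07 and −0.17 ± 0.09.

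The other 3 genes that rose were MPC3, YKR075C and CMK1. MPC3 (YGR243W, chromosome VII, 977336 to 977776) encodes a subunit of the mitochondrial pyruvate carrier used in respiratory growth. It was at 28.7, 4.71 and 6.53 CPM in WT at 48 h and at 47.0, 8.97 and 24.1 CPM at 72 h, and in the cnb1 strain at 29.6, 8.82 and 7.93 CPM and then at 47.2, 13.3 and 16.5 CPM. Replicate 1 was again highest at each time, and the times overlapped. MPC3 rose by 0.96 ± 0.18 (edgeR adjusted p = 0.0424). It had fallen by 2.90 ± 0.12 between 0 h and 12 h, and its means at 72 h, 26.7 CPM in WT and 25.7 CPM in the cnb1 strain, were still below those at 0 h, 43.1 and 41.5 CPM. YKR075C (chromosome XI, 579827 to 580750) was at 126, 16.9 and 23.0 CPM in WT at 48 h and at 159, 19.2 and 36.8 CPM at 72 h, and in the cnb1 strain at 162, 23.8 and 47.7 CPM and then at 259.7, 32.8 and 66.4 CPM. YKR075C rose by 0.47 ± 0.09 (edgeR adjusted p = 0.0380) in 6 of 6 pairs, with replicate 1 the highest at each time in each strain.

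CMK1 (YFR014C, chromosome VI, 172537 to 173877), a calmodulin-dependent protein kinase, was at 96.6, 50.2 and 64.8 CPM in WT at 48 h and at 114, 59.2 and 80.1 CPM at 72 h. In the cnb1 strain it was at 76.4, 45.4 and 52.7 CPM and then at 91.7, 55.3 and 60.6 CPM. All 6 pairs rose by like amounts, between 0.20 and 0.31, and the times overlapped in both strains. CMK1 rose by 0.26 ± 0.05 (edgeR adjusted p = 0.0490), by 0.26 ± 0.08 in WT and 0.26 ± 0.08 in the cnb1 strain. Its 95% interval, 0.15 to 0.37, lay within 1.5-fold. The calls of genes that rose depended on the setting: of 25 alternatives, CMK1 was called in 3, SNF3 in 5, and MTH1, MPC3 and YKR075C in 7 each. CTF19 was called in 21 of 25 and PHO11 in 18. The last annotated gene of at least 20 CPM that fell was MNN1 (YER001W, chromosome V, 153520 to 155808), an alpha-1,3-mannosyltransferase of the Golgi that caps mannan chains. It was at 31.4, 43.6 and 38.3 CPM in WT at 48 h and at 26.0, 36.6 and 34.1 CPM at 72 h, and in the cnb1 strain at 42.0, 67.3 and 57.5 CPM and then at 30.8, 50.3 and 47.7 CPM. It fell by 0.30 ± 0.06 (edgeR adjusted p = 0.0424), in 6 of 6 pairs with overlap, after a fall of 0.98 ± 0.15 in the first 12 h. Its change from 12 h to 48 h was −0.70 ± 0.11. MNN1 was called in 6 of 25 alternatives, and its 95% interval, −0.43 to −0.18, also lay within 1.5-fold.

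Most of the genes that fell are not genes of the reference annotation. Of the 41, 34 have identifiers that the R64 annotation used here does not hold, so no position or role is given for them. They are 6.50% of the 523 such genes tested, and 29 of the 34 were below 20 CPM at both times. Their log2 fold changes ran from −1.79 to −0.90, and 33 of 34 were lower in 6 of 6 pairs. The 1 with the smallest p was YMR307C-A, at 38.9, 94.1 and 65.5 CPM in WT at 48 h and 16.7, 50.6 and 17.8 CPM at 72 h, and in the cnb1 strain at 13.3, 52.7 and 34.0 CPM and then 6.98, 16.7 and 6.42 CPM. It fell by 1.49 ± 0.16 (edgeR adjusted p = 0.0097), with overlap between the times in each strain. YAL037C-B, from 38.4, 58.4 and 32.6 to 12.5, 30.7 and 9.91 CPM in WT and from 11.4, 47.3 and 25.9 to 7.30, 16.8 and 5.45 CPM in the cnb1 strain, fell by 1.46 ± 0.18 (edgeR adjusted p = 0.0097).

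The summed level of the 34 genes was lower at 72 h in all 6 pairs. It in WT was 412, 571 and 437 CPM at 48 h and 162, 361 and 153 CPM at 72 h, and in the cnb1 strain 134, 494 and 276 CPM and then 92.3, 187 and 68.0 CPM. The sum had been 33.5 to 426 CPM at 0 h and 431 to 945 CPM at 12 h. The median over all 523 genes outside the annotation was also below 0, at −0.28, with 374 of them negative. Of the 7 annotated genes that fell, IME4, HUR1 and CTF19 overlap a gene on the other strand. IME4, which encodes an mRNA methyltransferase of meiosis, is overlapped over all of its 1803 bases by RME2, its antisense RNA, HUR1 shares 181 bases with PMR1, and CTF19 shares 27 of its bases with IRC15. IME4 ran from 0.760 to 2.29 CPM at 48 h and from 0.266 to 1.33 CPM at 72 h and fell by 1.23 ± 0.24. HUR1 fell by 1.18 ± 0.23 and YLR264C-A by 1.26 ± 0.20, all 3 genes at mean levels under 3 CPM. PMR1, a calcium and manganese pump of the Golgi, was steady at 0.00 ± 0.07. Whether strand was used in counting is not given in the sources used here, so reads of a gene and of its antisense partner cannot be told apart.

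Most genes that fell late had risen early. Of the 41 genes that fell after 48 h, 33 (80.5%) had risen between 0 h and 12 h, or 1.54% of the 2146 genes that rose then, and 4 had fallen. Of the 5 that rose after 48 h, 4 had fallen by 12 h, out of 2152. Among all genes tested, 34.3% were called higher and 34.4% lower at 12 h. The 2 comparisons share no library, and 30 of the 33 were genes outside the annotation.

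Of 111 genes called at 12 h with a change of at least 4-fold, 31 (27.9%) were steady between 48 h and 72 h, 68 were undecided and 12 were called, 1 higher and 11 lower. The 12 are 10.8% of the 111, against 0.736% called and 83.9% steady over all genes tested. The 111 had a median level of 4.59 CPM at 48 h and a median SE of 0.24, against 41.0 CPM and 0.08 over all genes. The shares are thus not of genes at like levels, and whether they differ at like levels was not tested. Among the 12 steady genes whose intervals reached least far from 0 were 4 of iron uptake. FIT2, a cell wall mannoprotein that holds siderophore iron, had risen by 2.75 ± 0.15 by 12 h. It was then at 4192, 4824 and 4099 CPM in WT at 48 h and at 3608, 5062 and 4289.8 CPM at 72 h, and in the cnb1 strain at 4086, 4128 and 4350.2 CPM and then at 3755, 4433 and 4704 CPM. The times overlapped, and the change was 0.00 ± 0.08 with a 95% interval of −0.17 to 0.18. FIT1, a relative of FIT2, was steady at 0.26 ± 0.10, as were ARN2 (0.20 ± 0.09), a siderophore transporter, and FRE5 (0.07 ± 0.15), a putative ferric reductase. HBN1, OYE3 and YTP1 had also risen by 2.21 to 2.39 at 12 h and were steady, at 0.19 ± 0.10, 0.23 ± 0.11 and 0.10 ± 0.18. In WT pair 1, HBN1 and YTP1 were lower at 72 h, by log2 differences of −0.385 and −1.02. In the other pairs they were higher, at 0.25 to 0.41 and 0.03 to 0.54, so their fitted changes average opposite signs. Each was called in 1 of 25 alternatives.

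The steady genes that had fallen early included parts of mating. SST2, which damps the pheromone signal, had fallen by 2.21 ± 0.19 by 12 h. It was at 15.9, 19.3 and 19.2 CPM in WT at 48 h and 16.3, 16.1 and 19.1 CPM at 72 h, and in the cnb1 strain at 31.5, 48.7 and 41.5 CPM and then 26.7, 39.1 and 40.1 CPM. Both times overlapped, and the change was −0.14 ± 0.08. BAR1, the protease that degrades alpha factor, was steady at −0.24 ± 0.11 after an early fall of 2.42 ± 0.27. GPD1, a glycerol synthesis enzyme, ADE17, a purine synthesis enzyme, and SER3, a serine synthesis enzyme, had fallen by 12 h, with changes of −2.84 ± 0.17, −2.18 ± 0.13 and −2.51 ± 0.18. They were steady at 0.02 ± 0.16, 0.25 ± 0.11 and −0.23 ± 0.12. SER3 was lower in 6 of 6 pairs all the same. GPD1 was lower at 72 h in WT pair 1 (log2 difference −0.926) and higher in the other pairs, at 0.10 to 0.45.

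**Figure D4:**
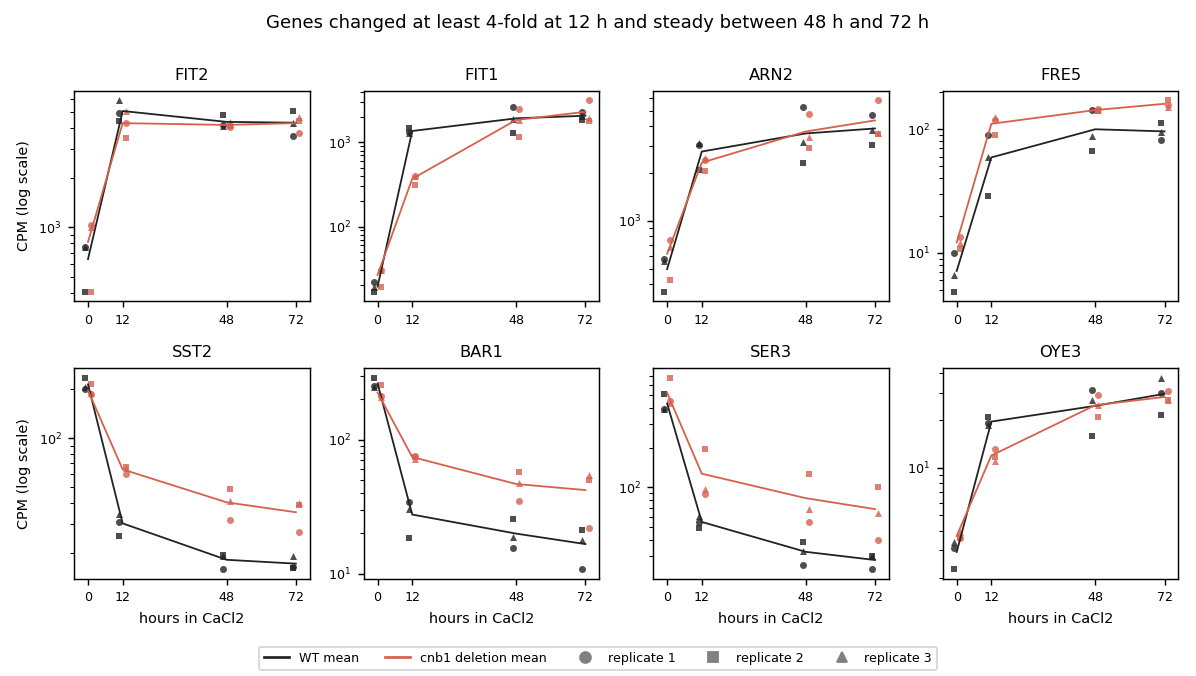
Level in every library (points, CPM on a log axis) of 8 of the 12 named steady genes against hours in CaCl2, with lines through the means of 3 libraries per strain. FIT2, FIT1, ARN2, FRE5 and OYE3 rose at least 4-fold by 12 h and SST2, BAR1 and SER3 fell by as much, and between 48 h and 72 h the fitted changes of all 8 lay between −0.24 and 0.26 (log2).

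The iron regulon as a list had 30 tested genes, with none called, 22 steady and 8 undecided, and a median of 0.08. Without WT replicate 1 at 48 h, 8 of the 30 were called, 6 higher and 2 lower, and the median was 0.24. Over all 6253 genes tested that refit called 226, 121 higher and 105 lower. LSO1, a small protein linked to iron, had a change of 0.73 ± 0.22 (edgeR adjusted p = 0.242) and was higher in 5 of 6 pairs. FRE4, a ferric reductase, had −0.56 ± 0.13 (edgeR adjusted p = 0.0932) and was lower in 6 of 6. FRE2 and ARN1 were at 0.35 ± 0.09 and 0.34 ± 0.13, and FIT3 was steady at 0.34 ± 0.11. In WT pair 1 the list median was −0.38, and in the other 5 pairs it lay between 0.15 and 0.38.

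Growth and housekeeping lists were mostly steady, beside 95.7% of all genes of at least 20 CPM. All 137 cytosolic ribosomal protein genes were steady, with changes from −0.18 to 0.17, as were 115 of 116 ribosome biogenesis genes and all 29 genes of RNA polymerases I and III. So were all 10 core histone genes, with HHF1 and HTA1 at 0.26 ± 0.10 and 0.21 ± 0.08, all 21 of the vacuolar proton ATPase, all 19 of the unfolded protein response and 34 of 35 of the proteasome. The exception in the proteasome list was RPN4, its transcription factor, at 0.47 ± 0.17 (edgeR adjusted p = 0.322). Of 35 genes of G1/S and DNA replication 32 were steady, with the G1 cyclin CLN2 at −0.47 ± 0.15 and undecided. Of 23 genes of the G2/M CLB2 cluster 21 were steady, with the mitotic cyclins CLB1 and CLB2 undecided at −0.37 ± 0.11 and −0.33 ± 0.12. None of these lists held a called gene. Without WT replicate 1 at 48 h, 5 genes of G1/S and DNA replication and 1 of ribosome biogenesis were called lower and 1 of the unfolded protein response higher. Over all 6253 genes tested that refit called 226, 121 higher and 105 lower. Without all the libraries of replicate 1 the G1/S list held 1 call.

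Many stress and storage genes were undecided. Of 46 genes of the general stress response none was called, 21 were steady and 25 undecided, with a median of 0.24. The median was −0.57 in WT pair 1 and between 0.13 and 0.85 in the other 5 pairs. HSP26 ran from 16.5 to 714 CPM at 48 h and from 23.8 to 645 CPM at 72 h, and its change was 0.72 ± 0.26 (edgeR adjusted p = 0.322). TMA10, a ribosome-associated protein of stress, ran from 6.06 to 356 CPM and from 31.4 to 377 CPM (0.77 ± 0.28, edgeR adjusted p = 0.323). Without WT replicate 1 at 48 h, 11 of the 46 genes were called, all higher, and the median was 0.41. Over all 6253 genes tested that refit called 226, of which 121 were higher. Medians of 0.17 over 23 stationary-phase genes, 0.11 over 21 trehalose and glycogen genes and 0.14 over 31 autophagy genes likewise had a negative value in WT pair 1 and positive ones elsewhere. None of their genes was called, and without that library 1, 3 and 4 were, all higher. The DAN, TIR and seripauperin genes of the cell wall, a family whose members share sequence, had the highest median, 0.42 over 21 genes, positive in all 6 pairs, with 17 undecided and none called (1 without WT replicate 1 at 48 h). DAN1 and PAU5 were at 0.96 ± 0.41 and 0.82 ± 0.25.

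Genes for leucine, isoleucine and valine synthesis had a median of −0.20 over 12 genes, 8 steady and 4 undecided. Without WT replicate 1 at 48 h, 5 of the 12 were called, all lower, and the median was −0.27. Over all 6253 genes tested that refit called 226, of which 105 were lower. LEU1 and BAT1 were at −0.52 ± 0.17 and −0.43 ± 0.14, each lower in 5 of 6 pairs with WT pair 1 the exception. IMD2, an IMP dehydrogenase whose near-identical relatives make its counts uncertain, ran from 2.68 to 75.9 CPM at 48 h and from 3.45 to 35.0 CPM at 72 h (−1.07 ± 0.23, edgeR adjusted p = 0.0694). All 10 lysine synthesis genes were steady, as were 15 of 16 arginine genes and 23 of 23 inositol and phospholipid genes, of which 1 was called lower without that library.

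**Figure D5:**
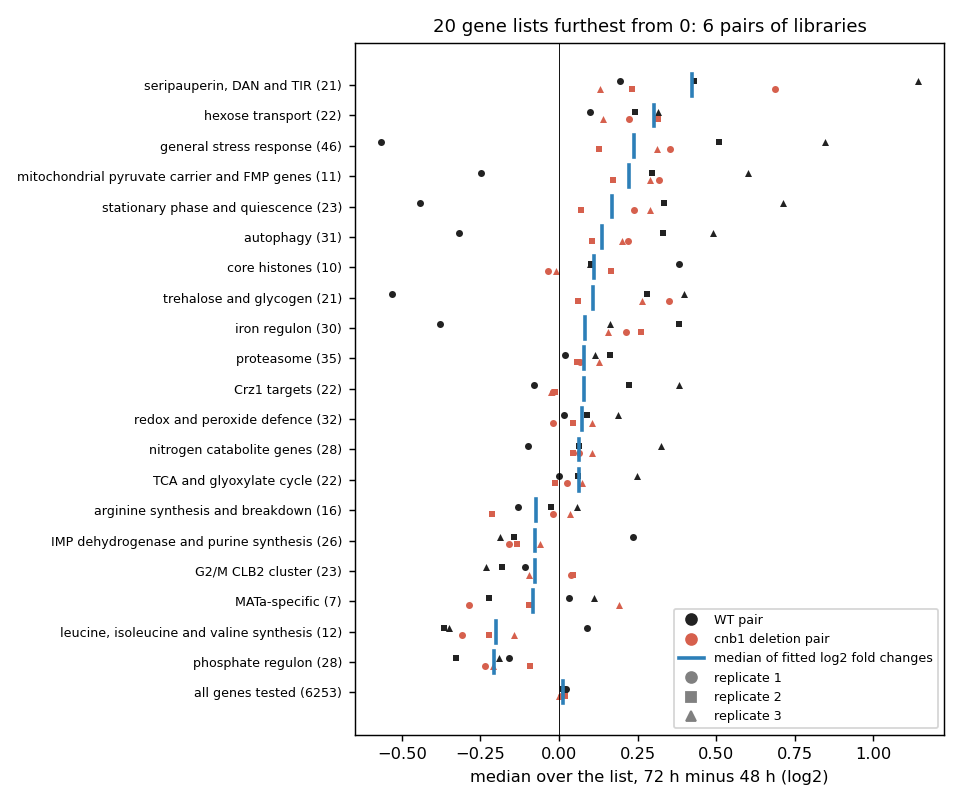
Median change from 48 h to 72 h (log2, horizontal axis) of the 20 gene lists whose medians lie furthest from 0, of lists with at least 5 tested genes, with the number of genes tested in brackets and all genes at the bottom. Blue bars are medians of the fitted changes and points are medians in each of the 6 pairs, where WT replicate 1 (black circles) lies below 0 for stress and storage lists while the phosphate list lies below 0 and the hexose list above 0 in every pair.

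Of 19 genes of calcium handling and calcineurin, CMK1 rose, none fell, 16 were steady and 2 were undecided. Over all genes tested 0.08% rose and 83.9% were steady. The count of 1 stayed at 1 without WT replicate 1 at 48 h. It was 0 in the other refits with libraries left out, with total count scaling and without the replicate factor. The undecided genes, CMK2 and RCN2, had larger fitted changes than CMK1, at 0.61 ± 0.30 (higher in 4 of 6 pairs) and 0.56 ± 0.18 (higher in 6 of 6). The calcineurin catalytic subunits CNA1 and CMP2 were steady at −0.16 ± 0.08 and −0.06 ± 0.07 and CRZ1 at 0.07 ± 0.06. So were the vacuolar calcium pump and exchanger genes PMC1 (0.20 ± 0.09) and VCX1 (−0.09 ± 0.09), and RCN1 (0.17 ± 0.12), an inhibitor of calcineurin. Of 22 Crz1 targets none was called, 15 were steady and 7 undecided. GSC2, a glucan synthase subunit, was steady at 0.15 ± 0.10.

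Neither strain alone, nor the difference between them, gave a called gene. The edgeR counts at an adjusted p under 0.05 were 0 in WT, 0 in the cnb1 strain and 0 for the strain difference, with 467, 281 and 84 genes at an unadjusted p under 0.05 (7.47%, 4.49% and 1.34%). DESeq2 called 42, 25 and 1. In WT, the edgeR count was 149 without replicate 1 at 48 h. CMK2, a calmodulin-dependent kinase and Crz1 target, was at 120.3, 38.9 and 131 CPM in WT at 48 h and at 277, 114 and 266 CPM at 72 h, and in the cnb1 strain at 20.2, 24.3 and 19.3 CPM and then at 19.8, 21.4 and 20.3 CPM. All 3 WT pairs were higher at 72 h, with replicate 2 at 72 h within the 48 h range, and the cnb1 libraries were level. The changes were 1.20 ± 0.34 in WT and −0.07 ± 0.36 in the cnb1 strain, and their difference, −1.27 ± 0.50, did not pass the test (unadjusted p = 0.0282, edgeR adjusted p = 1.0). NCW2, a cell wall gene, was at 91.4, 61.8 and 82.6 CPM in WT at 48 h and at 134, 131 and 161 CPM at 72 h with no overlap, and in the cnb1 strain at 42.1 to 47.3 and then 40.9 to 46.6 CPM. Its difference between strains was −0.90 ± 0.18 (unadjusted p = 0.000389, edgeR adjusted p = 1.0). RTA1, a membrane protein gene, PUN1, a plasma membrane protein gene, and RCN2, a regulator of calcineurin, had WT changes of 1.56 ± 0.43, 0.70 ± 0.20 and 0.75 ± 0.25. Their cnb1 changes were 0.55 ± 0.60, 0.12 ± 0.20 and 0.34 ± 0.26, and none of the 3 differences passed the test. These genes and CMK2 and NCW2 are list members, and the values of most other members in each strain are not shown here. Over all 22 Crz1 targets the median change was 0.13 in WT and −0.04 in the cnb1 strain. In WT pairs 1 to 3 the list median was −0.08, 0.22 and 0.38.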

How the data were processed

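RNA with a polyA tail was measured in 24 libraries, of which the 12 from 48 h and 72 h make the comparison. The authors deposited raw counts for 7126 genes and TPM for 6744. The deposited TPM values (transcripts scaled to a fixed total) were used only for alternatives. Per the submitters' processing notes the tools were featureCounts and DESeq2 with genome build R64. For the aligner, annotation release and use of strand, no setting was given in the sources used here. Columns were matched to samples by title, which gives the replicate number. Replicates of a group differed by more than sampling noise.

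Genes were filtered with edgeR's filterByExpr over the 8 groups, which left 6253, scaled by TMM and tested with the quasi-likelihood F test (edgeR 4.0.16, R 4.3.3) in a model of strain, replicate number and time. A second model with the strain by time term gave each strain and their difference. Values are two-sided with Benjamini-Hochberg adjustment over all genes, called under 0.05, and SEs are Wald SEs. Pair differences are log2 CPM with a prior count of 2. The scripts were tested on simulated data. Symbols came from the file for 5110 genes and from RefSeq for 240.

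Deviations from the group means of same-numbered libraries at 48 h and 72 h correlated at 0.69, 0.63 and 0.53 in the cnb1 strain and at 0.63, 0.67 and 0.04 in WT. The numbers thus pair the 2 times within the cnb1 strain and within WT for replicates 1 and 2. By the same measure they do not for WT replicate 3, where the best correlation with another number was 0.40. That is the pair in which the rises of MTH1, MPC3 and HXT4 stood above those of the other pairs. The factor is also shared by the 2 strains. Between WT and cnb1 libraries of the same number, the correlations were 0.57, 0.16 and 0.51 at 48 h and 0.69, 0.58 and 0.31 at 72 h. For replicate 2 at 48 h the best correlation with another number was higher, at 0.57. The same held for WT at 48 h with cnb1 at 72 h in replicate 2 (0.42 against 0.49). It also held for cnb1 at 48 h with WT at 72 h in replicate 3 (0.10 against 0.37). The factor was kept because the comparison is defined with it.

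The comparison, its 49 gene lists (48 with a tested member) and its tests were chosen with earlier results of these data known. The list without one is that of genes in mitochondrial DNA. Named genes have a standard name and at least 20 CPM at 48 h or 72 h. They are the called genes with 1 sign in 6 of 6 pairs, the 12 steady genes with an early change of at least 4-fold whose intervals reached least far from 0, up to 4 members of each list, and 12 calcium genes. Chosen after their values were seen were YKR075C, IME4, HUR1, YLR264C-A, YMR307C-A, YAL037C-B, VTC3, VTC4, PHO84, PHO5, PHO8, PHO3, PHO4, PHO81, HXT1, HXT2, HXT3, MIG1, RGT1 and FIT3. Alternatives covered the replicate factor, scaling, filter, tool (DESeq2 1.42.0, limma 3.58.1 on log2 of TPM plus 1 or 0.1), the libraries in the fit and leaving out replicates.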

Additional observations from a re-analysis of the deposited data

Results flagged for a closer look

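For 92 genes chosen for the text the 6 pair differences (log2 CPM at 72 h minus 48 h) were searched for a highest or lowest value set apart from the other 5 by more than chance gives in about 1 of 20 groups. There were 10 such values, 6 in WT pair 1, 3 in WT pair 3 and 1 in cnb1 pair 2. In WT pair 3 the value stood above the others for MTH1 (0.988), MPC3 (1.87) and HXT4 (1.57), so the size of the rise of MTH1 and MPC3 is largest in that pair. HXT1 stood above in cnb1 pair 2 (0.382). In WT pair 1, GPD1 (−0.926), HBN1 (−0.385) and YTP1 (−1.02) were below the other pairs, while LEU9 (0.538), ILV3 (0.215) and UTP20 (0.645) were above them. GPD1, HBN1 and YTP1 are among the steady genes, and that pair is the only one of the 6 in which they were lower at 72 h.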

How the results depend on the processing

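Against 46 genes called (5 higher, 41 lower), the fit with no replicate block gave 0 (0 higher, 0 lower), as did the model of all 24 libraries without the block. Total count scaling gave 23 (1 and 22) and a minimum of 10 CPM gave 11 (0 and 11). On deposited TPM, limma gave 25 (1 and 24) with a pseudocount of 1 and 21 (1 and 20) with 0.1, and DESeq2 gave 108 (16 and 92). The block nested in strain gave 54, with 10 higher, RLE size factors 45, with 3 higher, and no filter 43. The share of higher calls was 10.9% in the main result and 53.5% without WT replicate 1 at 48 h. The minimum of 10 CPM tested fewer genes, and for the rest the cause was not tested. DESeq2 called 42 in WT, 25 in cnb1 and 1 for the strain difference, where edgeR called 0 each. With 1 replicate number or library left out, counts ran from 0 to 226 (0 to 121 higher, 0 to 105 lower), in WT from 0 to 149, in cnb1 from 0 to 8 and for the strain difference from 0 to 2. They ran from 3460 to 3851 for 12 h against 0 h and from 0 to 813 for 48 h against 12 h. Called list members numbered 8 in the main fit, 0 without the block, 5 with total counts and 0 to 74 with a replicate number or library left out. The 74 came without WT replicate 1 at 48 h, and no other of these 15 refits gave more than 8. Leaving out single libraries for this count was chosen after seeing the data. Steady genes stayed at 4971 to 5299 over the leave-outs. No direction reversed for a called gene.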

Other observations

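Several other gene groups gave no call between 48 h and 72 h and were mostly steady. Of 43 genes of cell wall integrity 40 were steady (median 0.03), of 45 genes of mitochondrial respiration 40 (−0.01), of 28 genes of glycolysis and fermentation 25 (−0.06) and of 67 mitochondrial ribosomal protein genes 66 (0.02). Of 32 ergosterol synthesis genes 29 were steady, with HES1, an oxysterol-binding protein gene, undecided at 0.36 ± 0.17 and higher in 6 of 6 pairs. Of 17 genes of the zinc regulon 15 were steady, and of 32 genes of methionine and sulfate use 26. Without WT replicate 1 at 48 h, 2 genes of respiration, 2 of glycolysis and 1 of the mitochondrial ribosome were called higher, and 2 of ergosterol synthesis, 1 of the zinc regulon and 1 of methionine and sulfate use lower. Over all 6253 genes tested that refit called 121 higher and 105 lower. The mating genes STE2, the alpha factor receptor, and MFA1, an a-factor precursor gene, were at −0.21 ± 0.14 and 0.21 ± 0.19, the first steady and the second undecided.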
